A study of Oryza sativa Indica Group with 12 samples.

Results

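The stable abundant transcripts of the rice anther are the 69 probe sets whose signal was over 1000 on all 12 arrays and whose highest stage mean was at most 1.3 times the lowest. They were drawn from 57258 rice probe sets, control probe sets left out, and make up 0.120% of them. Signal is the linear GC-RMA intensity of a probe set, a measure of transcript level with no unit that was computed from several short probes of that transcript. A signal over 1000 on all 12 arrays was reached by 1411 probe sets, or 2.46% of the rice probe sets, and 4.89% of these 1411 met the limit on the stage means. The members were thus chosen by the signal values of the 12 arrays themselves, and the levels and stage ratios below describe that choice and are not tested.

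The arrays hold RNA of anthers of wild-type field-grown rice of the indica cultivar IR64, with no treatment and no mutant. The 4 stages are pre-meiotic anthers (PMA, anther length 350 to 450 μm), meiotic anthers (MA, 500 to 850 μm), anthers with single-celled pollen (SCP, 900 to 950 μm) and anthers with tri-nucleate pollen (TPA, 2000 to 2500 μm). Each stage has 3 biological replicates made of bulked anthers of several plants, so that the spread between arrays is a spread between pools. The MA arrays were run by another person than the rest, and person and stage cannot be told apart. Whole anthers mix wall layers, tapetum and germ cells, and fewer cells of a type and less RNA per cell cannot be told apart in them. Stamen identity genes were present at every stage, with stage means of 8041 to 20378 for OsMADS16 and of at least 649 for all 5 genes looked at. Markers of single cell types changed steeply over the same arrays, from 24.6-fold to 4451-fold between stage means over 3 meiocyte, 4 tapetum and 3 mature pollen genes, and none of these 10 genes was a member.

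The make-up of cell types in an anther changes over these stages. The tapetum, which feeds the germ cells, is formed and then degraded, and the meiocytes give rise to microspores and finally to pollen grains that carry stored transcripts for germination. Transcripts that keep 1 level through such a change are sought as internal references for quantitative PCR. The customary place to look for them is among housekeeping genes, which serve work that every living cell does, such as protein synthesis and turnover, vesicle traffic, primary metabolism and the upkeep of actin filaments.

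The table of genes paired 60 of the 69 probe sets with a single gene, 59 genes in all, because 1 gene (LOC4341860) is read by a pair of members. A gene name was given for 13 members, and 10 others were paired through the study's supplementary lists with a protein sequence of Arabidopsis. Neither was used for the remaining 46 members, so that the account of functions covers at most 23 of 69 probe sets, and of the 10 Arabidopsis matches 7 are described. The probe sets comprised 45 with unmarked names, 6 with the mark a, 14 with the mark s and 4 with the mark x. The marks s and x stand for probes that several transcripts can share, and the signal of these 18 members can be a sum over related genes. No sequence of the probes or of the genes was used here.

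The members spanned the range of levels from the threshold upwards. Their mean signal over the 12 arrays lay between 1143 and 17793 with a median of 2469, below the median of 3459 of all 1411 bright probe sets. The mean was under 3000 for 45 members, at least 5000 for 15 and at least 10000 for 6. The stage ratio, that is the highest stage mean divided by the lowest, had a median of 1.22, was at most 1.2 for 24 members and at most 1.1 for 6. Among all bright probe sets its median was 2.26, 855 of them (60.6%) were over 2 and 225 were over 4. The members are the end of a continuous range, since 137 bright probe sets lay between 1.3 and 1.5. On the inner side of the limit were ARF at 1.295, LOC4327372 at 1.2996 and LOC9270146 at 1.2998, and on the outer side LOC9270874 at 1.3002, LOC4333728 at 1.305 and LOC4346613 at 1.3054. The limit on signal was as narrow, with lowest arrays of 1002 for LOC4344492, 1004 for LOC4333216 and 1029 for PBC1 inside it. Outside it stood LOC4327237 at 979, LOC4331607 at 969 and LOC4332978 at 947, all with stage ratios under 1.3.

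**Figure D1:**
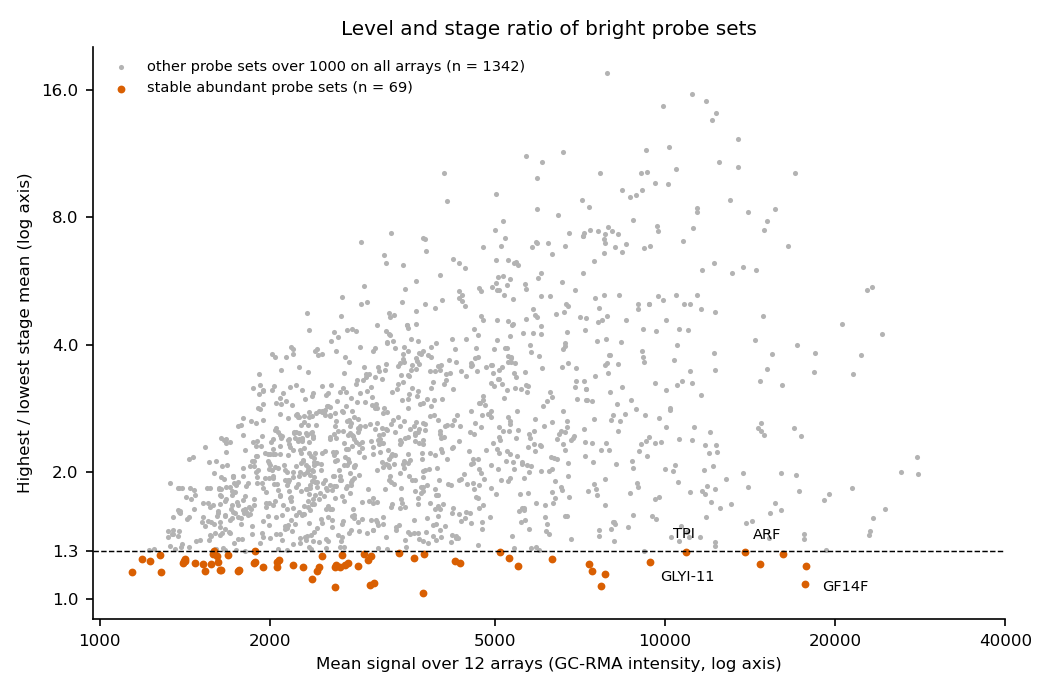
Mean signal over the 12 arrays (x axis, GC-RMA intensity, log axis) against the ratio of the highest to the lowest stage mean (y axis, log axis) for the 1411 rice probe sets over 1000 on all arrays, with the 69 stable abundant members in orange and the limit of 1.3 as a dashed line. Members lie along the whole range of levels from 1143 to 17793, and the empty upper left corner follows from the demand of a signal over 1000 on all arrays, which leaves probe sets of low mean little room for a high ratio.

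The stability depends on how the arrays are brought to 1 scale, and this bears on all that follows. The deposited values are already normalized by quantiles, and when quantile normalization was repeated on the 12 arrays alone, 69 probe sets again met the rule, 53 of them among the original members, and the ratios of the original members reached no more than 1.48. Each array was instead shifted to a common median, taken over the probe sets with a mean over 10 in any stage. On a given array that set can hold probe sets that are silent there and expressed at another stage. After this shift 101 probe sets met the rule and 0 of them were original members. The shift raised the original members by 0.50 on the log2 scale in TPA and lowered them by 0.23 in PMA, by 0.15 in MA and by 0.11 in SCP, and their median ratio became 1.71. The members are thus stable relative to the quantile-normalized signal of the whole array. Whether their amount per cell or per anther was constant cannot be read from these values.

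**Figure D2:**
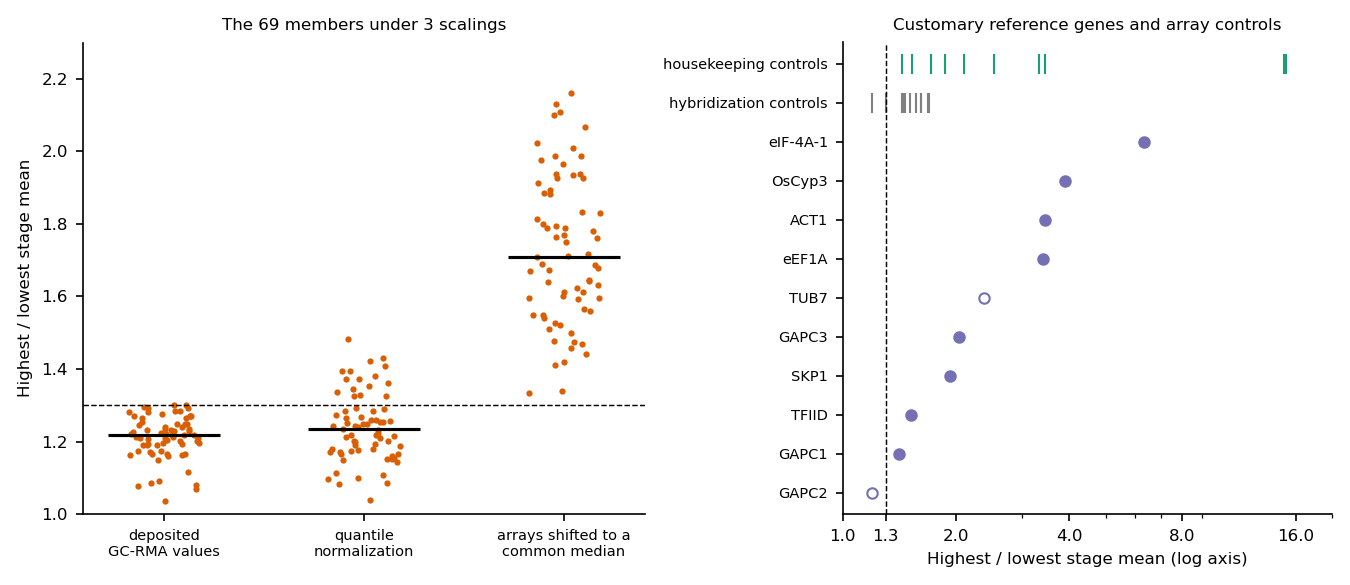
Left, the ratio of the highest to the lowest stage mean of each of the 69 members (points, bar at the median) for the deposited values, after quantile normalization of the 12 arrays and after a shift of each array to a common median. Right, the same ratio (log axis) of 10 customary reference genes (circles, open where a signal on some array was not over 1000) and of hybridization and housekeeping control probe sets over 1000 (ticks), where the dashed line marks 1.3, the medians of the members are 1.22, 1.23 and 1.71, and 1 hybridization control lies left of the line.

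Among the named members, the 14-3-3 protein GF14F had the lowest stage ratio. Proteins of the 14-3-3 family bind phosphorylated client proteins and so relay the action of protein kinases. The signal of GF14F was 16841, 15562 and 18042 in the 3 PMA arrays, 18481, 17394 and 17137 in MA, 17298, 17678 and 19291 in SCP, and 18389.7, 17655 and 18678 in TPA. The arrays of all 4 stages overlapped, the stage means lay between 16815 ± 1240.1 in PMA and 18241 ± 528 in TPA (SD, n = 3), and the stage ratio was 1.08. Several relatives changed over the same arrays. Of the 6 other 14-3-3 genes measured, 4 were called over the 4 stages by limma's F-test (adjusted p of 0.005 or less and at least 2-fold). The share called was 31.8% of all rice probe sets and 74.3% of those with a mean over 100, which all 6 had. Nothing particular to the family is read from this count. Of the 4 called, 3 were lowest in TPA, as were 49.2% of all bright probe sets. GF14D was at 3850.5 in PMA and 3389 in MA, then 3409 in SCP and 10153 in TPA (adjusted p = 9.27e-08). GF14A fell over the same stages, from 10671 ± 1106 in PMA to 2049.6 ± 125 in TPA (adjusted p = 2.91e-07). GF14G fell from 817 in PMA to 12.2 in TPA (adjusted p = 1.31e-08), and the smallest ratio among the 6 relatives was 1.64.

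A subunit of a protein kinase was found through its Arabidopsis match. LOC_Os03g63940 matches SNF4, which in Arabidopsis is a subunit of the SnRK1 kinase that responds to the energy state of the cell. Its signal was 1275 ± 52.1 in PMA and 1574 ± 81.2 in MA, then 1436 ± 97.5 in SCP and 1361 ± 114 in TPA (SD, n = 3), with a ratio of 1.23. This member and the others described by their Arabidopsis match were chosen for the text after their values had been seen.

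Protein turnover was represented by 3 named members. PBC1 is a beta subunit of the 20S core of the proteasome, the barrel in which ubiquitin-tagged proteins are cut, and TBP2 (Tat-binding protein homologue) is one of the ATPases of the regulatory cap that unfold them. The third, PSA, is a puromycin-sensitive aminopeptidase, an enzyme that trims peptides from their amino end. The signal of TBP2 was 2896, 2517 and 3206 in the 3 PMA arrays, 2329, 2562 and 2341 in MA, 2620.3, 2576 and 2752 in SCP, and 2762, 2609 and 2737 in TPA. All MA arrays were below all SCP and TPA arrays, the PMA arrays overlapped with every other stage, and the stage ratio was 1.19. PBC1 was more scattered, at 1433, 1029 and 1712 in the 3 PMA arrays, 1613, 1636 and 1565 in MA, 1511, 1663 and 1877 in SCP, and 1429, 1246 and 1588 in TPA. PMA held its lowest array, and its coefficient of variation (CV, the SD of the 3 arrays divided by their mean) was 24.7% in PMA and 2.24% in MA. PSA was at 2352 ± 309 in PMA and 2774 ± 61.03 in MA, then 2494 ± 189 in SCP and 2803 ± 173 in TPA (SD, n = 3). It is read by a probe set with the mark s, which related transcripts can share.

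The stage ratios of the 15 other proteasome genes measured ran from 1.54 to 3.00 with a median of 2.04, 13 of the 15 were over 1000 on all arrays, and 8 of the 15 were called over the stages, against 57.5% of all bright probe sets. All 8 were lowest in TPA on the deposited scale, as were 49.2% of all bright probe sets. After the shift to a common median 6 of these 8 were still lowest in TPA, but 0 of the 8 were called, and the alpha subunit PAD1, highest in TPA, was the one gene of the 15 called. RPN7, a subunit of the cap, was at 3069 in PMA and 3677 in MA, then 4052 in SCP and 1349 in TPA (adjusted p = 1.79e-06). PAE1, an alpha subunit of the core, was at 5899 in PMA and 5673 in MA, then 5175 in SCP and 2026 in TPA (adjusted p = 1.18e-05).

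**Figure D3:**
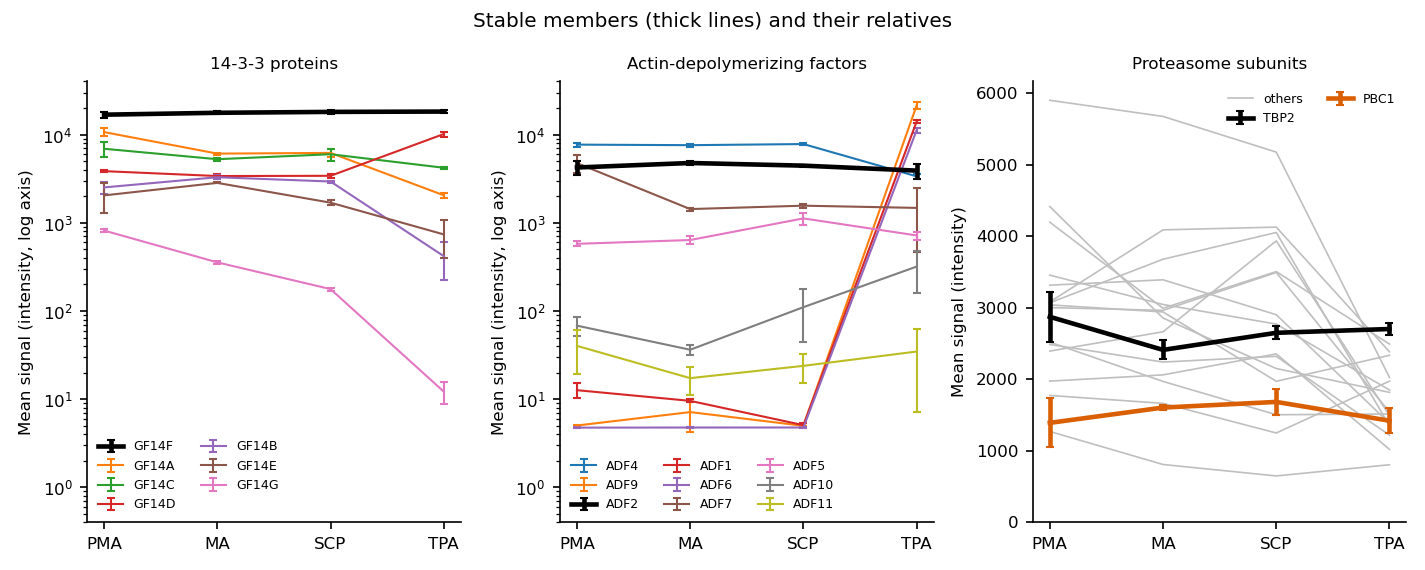
Stage means of signal (lines, with error bars of 1 SD over 3 arrays) for 14-3-3 proteins and actin-depolymerizing factors (log axes) and for proteasome subunits (linear axis), with the stable members GF14F, ADF2, TBP2 and PBC1 as thick lines and the 15 other proteasome subunits in grey without error bars. GF14F stays between 16815 and 18241 and ADF2 between 3903 and 4763, while ADF9 goes from 4.99 in SCP to 21442 in TPA.

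Vesicle traffic contributed ARF, which here is ADP-ribosylation factor and not auxin response factor. This small GTPase recruits coat proteins to budding vesicles. Its signal was 15068, 19405 and 13213 in the 3 PMA arrays, 14375, 14752 and 14921 in MA, 12447, 12861 and 11527 in SCP, and 12409, 12707 and 12340.4 in TPA. All 6 PMA and MA arrays were above all 6 SCP and TPA arrays, with a ratio of means of 1.29, and a single PMA array gave the highest value and a CV of 20% in that stage. A second ADP-ribosylation factor, matched to an Arabidopsis member of the family, LOC_Os01g59790, was read at 5188 ± 238 in PMA and 6206 ± 103 in MA, then 5321 ± 298 in SCP and 5252 ± 574 in TPA (SD, n = 3), and its ratio was 1.2. Its probe set has the mark x, which means that it can also read near-identical transcripts, other members of the family among them.

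ADF2, an actin-depolymerizing factor that severs actin filaments and speeds their turnover, was the one cytoskeletal gene among the members described here. Its signal was 4439.5, 3428 and 4833 in the 3 PMA arrays, 4839, 4977 and 4474 in MA, 4422, 4333 and 4579 in SCP, and 3944, 3156 and 4608 in TPA. The arrays of PMA and TPA were wider apart than those of MA and SCP, all 4 stages overlapped, and the ratio was 1.22. Of the 8 other genes of the family 4 were called over the stages, against 31.8% of all rice probe sets and 74.3% of those with a mean over 100. ADF9, ADF1 and ADF6 were near the background in PMA, MA and SCP, with stage means of 4.75 to 12.6, and reached 21442, 14045 and 11205 in TPA (adjusted p of at most 4.36e-10). ADF4 fell from 7810.2 in SCP to 3359.8 in TPA (adjusted p = 3.07e-07), but was not called after the shift to a common median, where its stage ratio was 1.52.

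Primary metabolism gave TPI and SAM1. Triosephosphate isomerase (TPI) interconverts the triose phosphates of glycolysis, and its signal was 9235, 9699.6 and 9508 in the 3 PMA arrays, 12894, 12149.5 and 11709 in MA, 10032, 11249 and 8688 in SCP, and 12366, 12772 and 10285 in TPA. The 3 PMA arrays lay below all MA and TPA arrays, the SCP arrays overlapped with PMA and TPA, and the ratio of 1.29 was close to the limit. The 7 genes of neighbouring steps of glycolysis included 4 that were called over the stages, near the 57.5% of all bright probe sets, and 5 of the 7 were bright. The aldolase gene FBA2 was at 5.15 in PMA and 12199 in TPA (adjusted p = 7e-16), and FBA1, another aldolase, was at 7441 in PMA and 13728 in MA, then 9486 in SCP and 4877 in TPA (adjusted p = 2.07e-05). After the shift to a common median FBA1 was not called, and its lowest stage was PMA in place of TPA, while TPI itself was called with a ratio of 2.07, highest in TPA (adjusted p = 2.07e-05). SAM1 is an S-adenosylmethionine synthetase, which makes the methyl donor of the cell and the precursor of polyamines and ethylene. It was among the members with the smallest spread between arrays of a stage. In limma's F-test over the stages it passed the adjusted p (adjusted p = 0.00495) but not the 2-fold limit. Its signal was 5237, 5481 and 5479 in the 3 PMA arrays, 5083, 4958 and 5392 in MA, 5994, 6063 and 5669 in SCP, and 4575, 4480.5 and 5133 in TPA. The 3 SCP arrays were above all arrays of the other stages and 2 of the TPA arrays were below all of them, with CVs of 2.59% to 7.45% and a ratio of 1.25. The other gene of that enzyme, SAM2, had a ratio of 1.94 and was not called (adjusted p = 0.0133), but was called after the shift to a common median with a ratio of 3.03 (adjusted p = 9.83e-05). LOC_Os09g31970 matches an Arabidopsis HMG-CoA reductase, the enzyme that commits carbon to sterols, and was at 2673 ± 258 in PMA and 2829 ± 12.97 in MA, then 2740.2 ± 61.5 in SCP and 3208 ± 593 in TPA (SD, n = 3).

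GLYI-11 and GRXS6 belong to detoxification and redox control. GLYI-11 is a glyoxalase I, which removes methylglyoxal, a toxic by-product of glycolysis. Its signal was 8967, 7591 and 9793 in the 3 PMA arrays, 10871, 10627 and 9576 in MA, 10219, 9923 and 9932 in SCP, and 8699, 6692 and 9994 in TPA. The MA and SCP arrays were close together, and array 2 was the lowest of PMA and the lowest of TPA. GRXS6, a glutaredoxin that reduces mixed disulfides with the help of glutathione, was at 1539.9 ± 106 in PMA and 1286 ± 18.5 in MA, then 1571 ± 101 in SCP and 1272 ± 159 in TPA (SD, n = 3). Of its 17 relatives 11 were called, against 31.8% of all rice probe sets and 74.3% of those with a mean over 100, and of the 11 called 5 were lowest in PMA and 5 in TPA. After the shift to a common median all 11 were called, of which 2 were lowest in TPA. GRXC6 fell from 9909 in PMA to 2142 in TPA (adjusted p = 1.52e-06). GRXC7 had the largest ratio among the relatives at 35.6, with 7918 ± 561 in MA and no other stage mean above 782 (adjusted p = 3.96e-05).

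Chromatin was represented by fie, a WD-repeat protein of the Polycomb complex PRC2 that places the repressive mark on histone H3. Its signal was 1256, 1224 and 1275 in the 3 PMA arrays, 1482, 1631 and 1566 in MA, 1517, 1532 and 1410.4 in SCP, and 1333, 1280.2 and 1516 in TPA. All 3 PMA arrays were below all MA, SCP and TPA arrays, and the ratio was 1.25. Through Arabidopsis matches, transcription and RNA processing added 3 further members. LOC_Os05g01020 matches a SIN3-like protein of histone deacetylase complexes, with a mean of 2443 and a ratio of 1.19. That probe set has the mark s and can also read related transcripts. LOC_Os01g05420 matches IWS1, a partner of elongating RNA polymerase II, with a mean of 1878 and a ratio of 1.22. LOC_Os06g36360 matches a poly(A) polymerase, which adds the tail of messenger RNA, with a mean of 3602 and a ratio of 1.25. Its member probe set also has the mark s. Another probe set of that gene was at 828 ± 39.8 in SCP and 1538 ± 130 in TPA (SD, n = 3). That probe set had a ratio of 1.86 and was not called. LOC_Os05g33610 matches the autophagy protein ATG18G, and its PMA arrays at 2369, 1582 and 1386 were wider apart than the 2082 to 2169 of MA.

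The cell wall gene EXPB4 met the rule with wide scatter behind its even means. It is a beta-expansin, a class of secreted proteins that loosen grass cell walls. Its signal was 2919, 2320.03 and 2817 in the 3 PMA arrays, 2515, 2405 and 2436 in MA, 2587, 2590.2 and 3134 in SCP, and 3155, 1903 and 3825 in TPA. The TPA arrays included both the lowest and the highest of all 12, a CV of 33%, beside a stage ratio of 1.21. The probe set of EXPB4 has the mark s, so that this signal can be a sum over related genes. None of the 10 other beta-expansin genes was over 1000 on all arrays, and 6 of them were called. The share called was 31.8% of all rice probe sets and 74.3% of those with a mean over 100. EXPB10 was at 4.19 in PMA and 25129.96 ± 1029 in TPA (adjusted p = 5.91e-17), and EXPB9 was at 19076 in TPA and at most 69.7 in the stage means before it (adjusted p = 4.16e-10). RHF, whose role is not given by the sources used here, was at 1414 ± 238 in PMA and 1658 ± 63.6 in MA, then 1735 ± 91.6 in SCP and 1678 ± 68.8 in TPA (SD, n = 3).

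**Figure D4:**
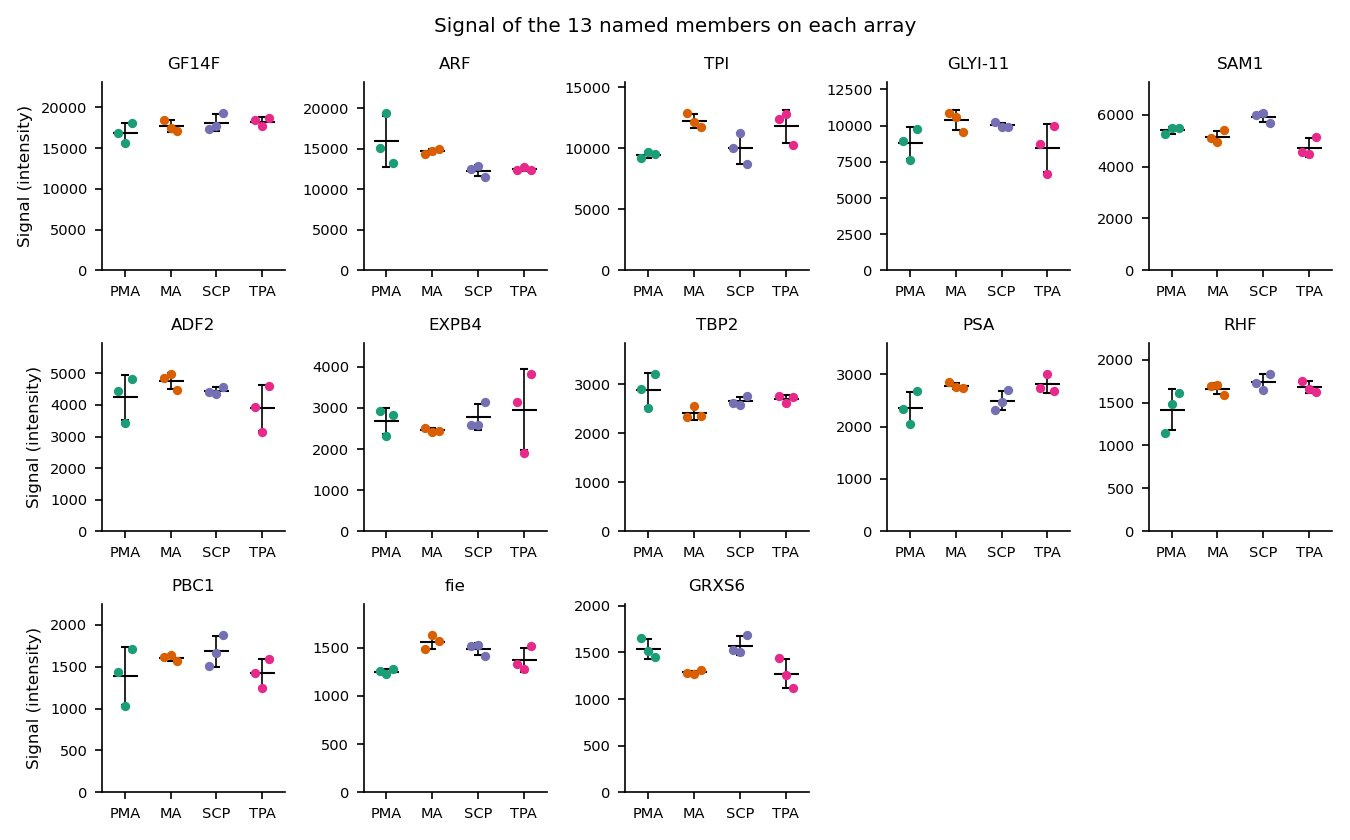
Signal (y axis, GC-RMA intensity from 0) of the 13 members with a gene name on each of the 12 arrays (points, coloured by stage) with the mean and SD of the 3 arrays of each stage (bars). GF14F holds a signal of 15562 to 19291 on all arrays, and the TPA arrays of EXPB4 spread from 1903 to 3825.

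Lists of housekeeping functions, filled by gene symbol, held 0 to 2 members each. Of 21 genes of ribosomal proteins with a symbol, 16 were over 1000 on all arrays and 0 were members. The same held for translation factors (6 bright of 11 measured), splicing and RNA-binding proteins (3 of 12), respiration and ATPases (6 of 10), chaperones and cyclophilins (5 of 29), membrane transport (9 of 130) and transcription factors (11 of 197), each with 0 members. The ubiquitin and proteasome list held 2 members among 19 bright genes and the redox list 2 among 15. Histones and chromatin (5 bright), actin and tubulin (11), small GTPases and vesicle transport (6), glycolysis and the TCA cycle (6), and 14-3-3 proteins, kinases and phosphatases (13) gave 1 member each. Over all bright probe sets 4.89% were members, and nothing particular to a list is drawn from these counts. Only 2459 of 17905 genes measured carried a symbol that a list could use.

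Genes that are customarily used as references in rice expression studies gave 0 members among those that could be matched to a probe set. Customary ubiquitin genes, a ubiquitin-conjugating enzyme and profilin could not be matched by symbol and were left out. Whether a member reads any of these is not known. Of 10 such genes with a probe set, 8 were over 1000 on all arrays, 6 were called over the stages, and the median ratio was 2.21. All bright probe sets had a median ratio of 2.26, 57.5% of them were called and 4.89% were members, so these counts are near the background and nothing particular to the reference genes is read from them. The bright gene with the lowest ratio was GAPC1, a cytosolic glyceraldehyde-3-phosphate dehydrogenase, at 12343 in PMA and 12353 in MA, then 10576 in SCP and 8774 in TPA and a ratio of 1.41. TFIID, the TATA-binding protein, followed at 1.52 and SKP1 at 1.93. After the shift to a common median GAPC1 was highest in TPA in place of MA, and GAPC1 and SKP1 were both at a ratio of 1.26. ACT1, an actin, was at 15879 in PMA and 16567 in MA, then 9190.04 in SCP and 31743 in TPA, with TPA arrays above all others. The probe sets of ACT1 and GAPC1 have the mark s and that of SKP1 the mark x. Their signals can thus be sums over related genes. Several of the reference genes, ACT1 among them, have 2 or 3 probe sets, of which 1 each is given here. The elongation factor eEF1A, read by a probe set shared by its 4 genes, fell from 31214 in PMA to 9180.1 in TPA, and eIF-4A-1, a helicase of translation initiation, from 12298 to 1949, both called. The cyclophilin OsCyp3 had a ratio of 3.9, the beta-tubulin TUB7 of 2.38 and GAPC3 of 2.04. GAPC2 had a ratio of 1.19 at a signal of 14.9 to 17.8 in the stage means, close to the background, and was therefore no member.

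Control probe sets on the same arrays gave a further view of the scale. Of 11 housekeeping controls over 1000, which read rice actin, GAPDH and ubiquitin, 0 had a ratio of at most 1.3, and their ratios ran from 1.44 to 15.1. The hybridization controls, bacterial and phage transcripts added in equal amounts to each array, had ratios of 1.19 to 1.70 with a median of 1.51 over the 11 probe sets over 1000, of which 6 were highest in MA and 5 in TPA. The 16 dimmer hybridization controls had ratios of 2.04 to 3.70 with a median of 2.95, and all 16 were lowest in PMA and highest in TPA. The poly-A controls, a further class of control probe sets, had another order. Those over 1000 on all arrays had ratios of 1.52 to 1.93, were highest in MA or SCP and lowest in TPA or PMA. The members were chosen for a ratio of at most 1.3 on this same scale, and the part of the scale in their ratios was not tested.

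Over the 12 arrays together, the highest array of a member was 1.46 times the lowest in the median, from 1.17 to 3.17, and 7 members stayed within 1.3 and 40 within 1.5. All bright probe sets had a median of 2.82. The members summed to 1.33% to 1.51% of the total signal of an array, lowest in TPA (1.33% to 1.40%) and highest in MA (1.49% to 1.51%). On the deposited scale 26 members (37.7%) were highest in SCP and 12 (17.4%) in PMA, against 21.6% and 32.2% of all bright probe sets, and 26 were lowest in PMA (37.7%) and 22 in TPA (31.9%), against 19.1% and 49.2%. These orders turn with the scale, since all 69 members were highest in TPA after the shift to a common median. On single arrays the median deviation of the members from their own mean was between -0.06 and 0.06 on the log2 scale.

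The spread between arrays of a stage differed from stage to stage. The median CV over the 69 members was 8.64% in PMA and 3.83% in MA, then 5.85% in SCP and 9.96% in TPA. The 1342 other bright probe sets had the same order, with 10.5%, 4.11%, 6.05% and 12.1%. The 487 bright probe sets with ratios between 1.3 and 2 were close to the members too, at 10.1%, 4.04%, 5.96% and 10.004%. The largest CV of a member was in TPA for 36 members, in PMA for 22, in SCP for 10 and in MA for 1. A CV over 15% was found for 23 members in TPA, 11 in PMA, 3 in SCP and 0 in MA. The value of SCP rests on 1 array, since without SCP replicate 3 the median CV of the other 2 arrays was 2.06%, and the lowest values of this kind were 2.33% in MA (without MA replicate 3) and 5.89% in TPA (without TPA replicate 3). The rule sets no limit on the CV itself. Its limits on the stage means and on the signal of every array can still bear on the spread within a stage. The lower median CVs of the members are thus not free of the choice, and no test was made of the differences in CV.

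**Figure D5:**
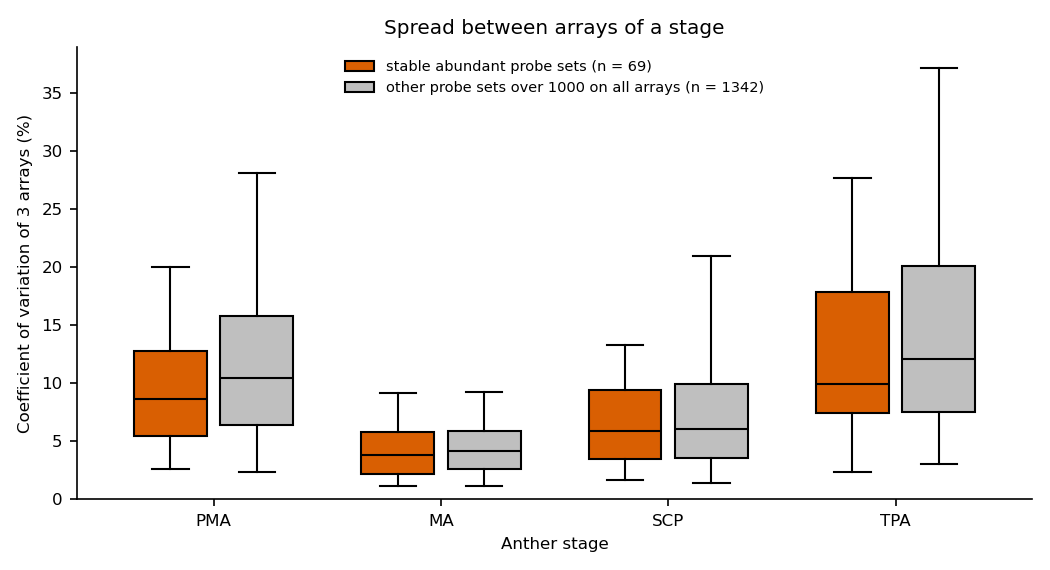
Coefficient of variation of the 3 arrays of each stage (y axis, %) for the 69 members (orange) and the 1342 other rice probe sets over 1000 on all arrays (grey). Boxes span the quartiles with a line at the median and whiskers reach the 5th and 95th percentiles, and the medians of the members are 8.64%, 3.83%, 5.85% and 9.96% in PMA, MA, SCP and TPA.

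Even means could hide uneven arrays. LOC4331150 had one of the lowest stage ratios at 1.07, yet its 3 PMA arrays were 3458, 1781 and 2268, a CV of 34.5%. LOC4330402 was at 3196, 1102 and 3489 in the 3 TPA arrays, the largest CV of a member at 50.2% and the widest ratio between arrays at 3.17. These 2 and EXPB4 had the largest mean CV over the stages, at 20.9%, 20.6% and 14.6%. At the other end were LOC4325062 with 3.88%, LOC4328103 with 4.06%, and LOC4348695 and SAM1 with 4.49% each. LOC4328103 was flat both within and between stages, at 3196, 2971 and 2895 in the 3 PMA arrays, 3116, 2875 and 2923 in MA, 3100.2, 3197 and 3152 in SCP, and 2978, 3020.5 and 2738 in TPA, and among its stages SCP and TPA alone did not overlap. LOC4340958 had the lowest stage ratio, 1.035, with stage values of 3766 ± 367 in PMA and 3724 ± 66.9 in MA, then 3799 ± 129 in SCP and 3671 ± 322 in TPA (SD, n = 3). The member with the highest mean signal was paired with no single gene and was at 17039 ± 1778 in PMA and 18116 ± 574 in MA, then 19656 ± 116 in SCP and 16360.3 ± 1614 in TPA. With the spread that limma shares over probe sets, the 95% interval of a stage pair spanned a factor of 1.08 to 1.83 to either side of its fold, 1.18 in the median. All 6 pairs of stages had intervals within 1.5-fold for 44 of the 69 members and within 2-fold for 68. These intervals lie around stage folds that the rule had kept small, and they were not adjusted for the 6 pairs. They describe the spread, and no stability between stages is read from them. The F-test over the stages called 0 members, where 31.8% of all rice probe sets and 57.5% of the bright ones were called. By the same test 4 members passed the adjusted p alone (36.6% of all rice probe sets and 77.5% of the bright ones), and 22 had an unadjusted p under 0.05. The test that the methods name also called 0. After the shift to a common median the F-test called 5 of the 69 members (7.25%) and 58.1% of the bright probe sets. Since the rule used the same contrast, nothing is read from this.

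A choice made on part of the arrays was carried to the arrays it had not used. When the rule was applied to 8 arrays, leaving out replicate number 1, 2 or 3 of every stage, it picked 67, 80 and 65 probe sets. On the left-out 4 arrays, 1 of each stage, the median ratio of highest to lowest array of these was 1.301, 1.39 and 1.39, against 2.298, 2.501 and 2.32 for all probe sets that were bright on the 8 arrays. A ratio of at most 1.5 was kept by 89.6%, 67.5% and 63.1% of the chosen probe sets, against 14.8%, 11.1% and 12.9% of the bright ones. A ratio of at most 1.3 was kept by 49.3%, 30% and 38.5%, against 4.65%, 3.05% and 4.601%. These ratios compare single arrays in place of stage means. The left-out arrays were normalized together with the others. Of the 69 members, 31 met the rule whichever 1 of the 12 arrays was left out.

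Other probe sets of the same genes are a measure that the rule did not use, though they come from the same arrays. Several of them carry the probe set name of the member with another mark or none. They may share sequence with the member, and that was not examined. Of the genes read by members, 18 had 23 other probe sets, of which 10 had a mean signal over 100 and 10 were under 30. The 10 brighter ones had a median ratio of 1.65 and 9 of them were at most 2, but 0 of them were at most 1.3. All 16178 rice probe sets with a mean over 100 had a median ratio of 4.48. Most of the 10 had a mean over 1000, however, and the 1411 rice probe sets over 1000 on all arrays had a median ratio of 2.26. Of the 23 probe sets, 3 were called over the stages, and of the 10 brighter ones 1 was called. The share called was 74.3% of rice probe sets over 100 and 57.5% of those over 1000 on all arrays. The brighter one that was called reads TPI. After the shift to a common median, 9 of the 23 and 4 of the 10 were called. The second probe set of TPI was at 76.8 ± 19.03 in PMA and 165 ± 6.53 in MA, then 134 ± 15.6 in SCP and 1249 ± 189.5 in TPA (SD, n = 3; adjusted p = 4.21e-07), while the member probe set had a mean of 10882 over the 12 arrays. The other 2 called were a second probe set of LOC4327372, with a ratio of 17.5, and one of LOC_Os06g36360, with a ratio of 14.8, both with a mean under 100. LOC4341860 had 3 probe sets, of which 2 were members with ratios of 1.28 and 1.21 and the third had a ratio of 1.40. The second probe set of the ADP-ribosylation factor of LOC_Os01g59790 had a ratio of 1.45.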

How the data were processed

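RNA of anthers at 4 stages was hybridised to 12 one-colour Affymetrix rice arrays, 3 biological replicates of bulked anthers per stage. Labelling, hybridisation and scanning were done by the authors, who deposited linear intensity values from GC-RMA, with background correction, quantile normalization and probe set summaries made together with arrays of other tissues that are not analysed here. No further background correction or normalization was applied. All 12 columns were mapped to a stage by their labels.

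Of 57381 probe sets, 123 controls were left out. Members were taken from the other 57258 with a signal over 1000 on all 12 arrays and a ratio of the highest to the lowest stage mean (linear scale) of at most 1.3. For the test, the limma package (version 3.58.1, functions lmFit and eBayes) in R 4.3.3 was run on log2 values of all rice probe sets and all 12 arrays together. The call over the stages needed an adjusted p (Benjamini-Hochberg) of at most 0.005 in the moderated F-test and a difference of 2-fold or more between stages. Levels are linear means with the SD of 3 arrays, and tables were made with Python 3.11.15 and pandas 2.3.3. The script was tested on simulated data. The number of arrays limits the precision.

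Gene names come from a table of the array's probe sets, which pairs 22436 with 1 gene, and from RefSeq symbols. Pairs of probe sets with loci and with Arabidopsis proteins come from the study's supplementary lists, among them lists of sperm-expressed genes. The named genes are the members that carry a gene name, the members with the largest and smallest spread or nearest to the limits, the reference genes with a probe set, and the second probe sets of member genes with the largest ratios. The members and the lists were chosen with earlier results of these data known. Alternatives were other normalizations, other limits, arrays, replicate numbers or stages left out, one-way ANOVA, a replicate block and filters on dim or shared probe sets.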

Additional observations from a re-analysis of the deposited data

How the results depend on the processing

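The number of members, 69 as reported, was 24 with a ratio of at most 1.2 and 206 with at most 1.5, 128 with a lowest signal of 500 and 34 with 2000, 166 without the MA stage and 505 without the TPA stage, and 45 when unmarked probe sets alone were counted. It was 69 (53 shared) after quantile normalization, 101 (0 shared) after the shift to a common median, 70 (68 shared) with means of log2 values and 59 when counted once per gene. With 1 replicate number left out of every stage it was 65 to 80, of which 43 to 58 were shared, and with 1 array left out 64 to 77, of which 53 to 68 were shared. The fewest shared, 43, were found without replicate 3. Of the 69 members, 27 were kept whichever array or replicate number was left out.

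The number of rice probe sets called over the stages, 18225, was 16944 to 21187 under one-way ANOVA, no fold limit, a filter at a signal of 10, both normalizations and the block, and 8931 to 14338 without a replicate number, with fewer arrays in each fit (8931 without replicate 1 and 11170 without replicate 2). Of the 23 other probe sets of the member genes 3 were called, against 9 after the shift to a common median, 1 among those with a mean over 100 and 2 to 4 without a replicate number. The cause of the rise to 9 was not tested beyond the shift itself.

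The median CV of the members became 9.60% in PMA and 13.6% in TPA after the shift to a common median. With 1 array of the stage left out, an alternative chosen after seeing the data, it was 6.57% to 7.75% in PMA, 2.33% to 3.47% in MA, 2.06% to 6.30% in SCP and 5.89% to 11.9% in TPA, as a CV of 2 arrays. The median ratio of the reference genes was 2.00 to 2.44 in all alternatives. Of these genes, 1 was at most 1.3 as reported, 0 after quantile normalization and 2 after the shift to a common median.

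The replicate numbers did not pair the arrays, since the deviations of same-numbered arrays correlated at -0.06 to 0.10 over 18 pairs. With the replicate number as a block, 16944 probe sets and 2 of the 23 other probe sets of member genes were called.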
